A study of Homo sapiens with 4 samples.

Results

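The mitochondrial genome held 10 of the 275 single-nucleotide m6A sites listed for RBFOX2-bound and input chromatin-associated RNA (caRNA) of K562 cells (3.64%), and 9 of these 10 lay on the minus strand, opposite to protein-coding genes. The members were all sites of the list on the mitochondrial chromosome, each assigned to the gene annotated at its position. The 9 antisense sites faced MT-ND5 (3 sites), MT-ATP6 and MT-CYB (2 each), and MT-CO1 and MT-CO3 (1 each), and the remaining site lay in the 12S ribosomal RNA gene MT-RNR1 on its own strand. K562 is a human chronic myeloid leukaemia line. The study used 4 m6A-SAC-seq libraries of ribosomal-RNA-depleted caRNA from wild-type K562 cells: input RNA and RNA captured by purified His-tagged RBFOX2 with an anti-His antibody, each treated with recombinant MjDim1 enzyme or left untreated, with 1 library per condition. The labels call the cells K562 and, under cell type, a hepatoma line, and a list of sites holds no expression from which the line or the chromatin fraction could be checked. MjDim1 places an allyl group on m6A, which after iodine treatment is misread by the reverse transcriptase, so the mutation frequency at an adenine is read as its m6A level. The list gives 2 m6A levels per site, in percent, without naming the library of either, and gives no read counts. The depth behind every level is therefore unknown, no interval could be set on a level, and with 1 library per condition no difference between levels could be tested.

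Both strands of the circular mitochondrial DNA are transcribed into long RNAs that span many genes and are then cut, mostly at transfer RNAs. The RNA with the sequence of the plus strand of the reference carries both ribosomal RNAs and nearly all messenger RNAs. The RNA with the sequence of the minus strand carries MT-ND6 and a minority of the transfer RNAs, is otherwise antisense to genes, and is known to be removed quickly by the mitochondrial degradosome of SUPV3L1 and PNPT1. The m6A methyltransferase METTL3–METTL14, works mainly in the nucleus, at the consensus DRACH (D is any base but C, R a purine, H any base but G).

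The sequences of all members are given because most of them share the same bases around the site. Each is the RNA of the stated strand over 51 nt of hg38, 5′ to 3′, with the 5-mer that has the site at its middle base in capitals, and sites in the same gene are numbered by their position.
MT-RNR1, plus strand, chrM:663-713: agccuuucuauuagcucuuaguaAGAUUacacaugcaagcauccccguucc
MT-CO1, minus strand, chrM:7241-7291: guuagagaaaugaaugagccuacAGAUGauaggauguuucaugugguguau
MT-ATP6 site 1, minus strand, chrM:8941-8991: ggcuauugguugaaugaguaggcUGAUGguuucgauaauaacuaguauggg
MT-ATP6 site 2, minus strand, chrM:9076-9126: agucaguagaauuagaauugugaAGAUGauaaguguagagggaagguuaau
MT-CO3, minus strand, chrM:9866-9916: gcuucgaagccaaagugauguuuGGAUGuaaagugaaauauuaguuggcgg
MT-ND5 site 1, minus strand, chrM:12679-12729: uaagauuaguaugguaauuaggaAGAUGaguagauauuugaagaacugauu
MT-ND5 site 2, minus strand, chrM:14035-14085: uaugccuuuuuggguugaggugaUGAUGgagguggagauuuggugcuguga
MT-ND5 site 3, minus strand, chrM:14098-14148: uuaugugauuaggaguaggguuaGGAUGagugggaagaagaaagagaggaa
MT-CYB site 1, minus strand, chrM:15410-15460: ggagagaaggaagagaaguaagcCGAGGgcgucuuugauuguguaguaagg
MT-CYB site 2, minus strand, chrM:15614-15664: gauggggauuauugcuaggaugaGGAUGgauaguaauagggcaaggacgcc

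In 8 of the 10 sequences the site was the adenine of GAUG, and the list classed none of the 10 as DRACH. All 10 sites followed a G, as did most of the listed nuclear sites. The 8 GAUG sites comprised 3 AGAUG (MT-CO1, MT-ATP6 site 2 and MT-ND5 site 1), 3 GGAUG (MT-CO3, MT-ND5 site 3 and MT-CYB site 2) and 2 UGAUG (MT-ATP6 site 1 and MT-ND5 site 2). The other 2 were the AGAUU of MT-RNR1 and the CGAGG of MT-CYB site 1. Among the 265 listed nuclear sites, GAUG with the site at its adenine was found at 75 (28.3%) and DRACH at 93. The windows around the 9 antisense sites were rich in G and poor in C, with 25.5% to 41.2% G and 0% to 9.80% C, on a strand whose composition is 31.3% G and 13.1% C.

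Sites were next placed on the 37 annotated mitochondrial genes, which are 13 protein-coding, 22 transfer RNA and 2 ribosomal RNA genes. Of the protein-coding genes, 5 had a site on the opposite strand and 0 on their own strand. No site lay in a transfer RNA gene or in MT-ND6, the only protein-coding gene of the minus strand and a subunit of respiratory complex I. By contrast, of the listed nuclear sites in genes annotated on 1 strand only, 202 lay on the strand of the gene and 1 on the opposite strand. This leaves out 48 nuclear sites where genes are annotated on both strands and 14 in no gene. A nuclear site in an annotated antisense gene falls among the 48, whereas no gene is annotated opposite the mitochondrial genes at the listed sites. The mitochondrial and nuclear counts are therefore not made alike.

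MT-CO1 (ENSG00000198804.2, chromosome M, 5904 to 7445, plus strand) encodes the catalytic subunit of cytochrome c oxidase. Its antisense site at position 7266 faced base 1363 of the 1542-nt gene, and lay 180 nt 3′ of MT-TS1, the next minus-strand gene upstream. The first level was 12.1% and the second 29.8%, a ratio of 2.46. The second level was the highest of the 10 sites, at rank 97 of the 275 listed sites, and the difference of 17.7 percentage points was the largest of the 10.

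MT-CO3 (ENSG00000198938.2, 9207 to 9990, plus strand), another core subunit of the same oxidase, had an antisense site at position 9891, facing base 685 of 784. Its levels were 5.85% and 7.55%, with a ratio of 1.29.

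MT-ATP6 (ENSG00000198899.2, 8527 to 9207, plus strand) encodes a membrane subunit of the ATP synthase, in the part that conducts protons. Antisense site 1 at position 8966 faced base 440 of 681 and had levels of 7.08% and 8.72%, a ratio of 1.23. Antisense site 2, 135 nt away at position 9101 and facing base 575, had levels of 8.38% and 5.24%, a ratio of 0.625. The second level was thus higher at the former site and lower at the latter within a single gene.

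MT-ND5 (ENSG00000198786.2, 12337 to 14148, plus strand) encodes a proton-pumping subunit of complex I and had 3 antisense sites, the most of any mitochondrial gene. Site 1 at position 12704 faced base 368 of 1812 and had levels of 6.43% and 9.20%, a ratio of 1.43. Site 2 at position 14060 faced base 1724 and had levels of 6.14% and 5.88%, a ratio of 0.959. Site 3 at position 14123 faced base 1787 and had levels of 5.57% and 5.15%, a ratio of 0.926. Sites 2 and 3 lay 63 nt from each other, and 89 and 26 nt 3′ of the annotated end of MT-ND6, which is the next gene upstream on the minus strand. Both had levels within 1 percentage point of each other.

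MT-CYB (ENSG00000198727.2, 14747 to 15887, plus strand) encodes cytochrome b of complex III. Antisense site 1 at position 15435, the CGAGG, faced base 689 of 1141 and had levels of 12.2% and 16.4%, a ratio of 1.35. Antisense site 2 at position 15639, 204 nt away, faced base 893 and had levels of 8.65% and 5.43%, a ratio of 0.628. Both lay between MT-TP and MT-TE on the minus strand, 5′ of MT-ND6. As in MT-ATP6, the second level was higher at 1 site and lower at the other.

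MT-RNR1 (ENSG00000211459.2, 648 to 1601, plus strand), the RNA of the small mitochondrial ribosomal subunit, held the only site on a gene's own strand. Position 688 was base 41 of its 954 nt, and the levels were 5.71% and 5.34%, a ratio of 0.937.

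**Figure D1:**
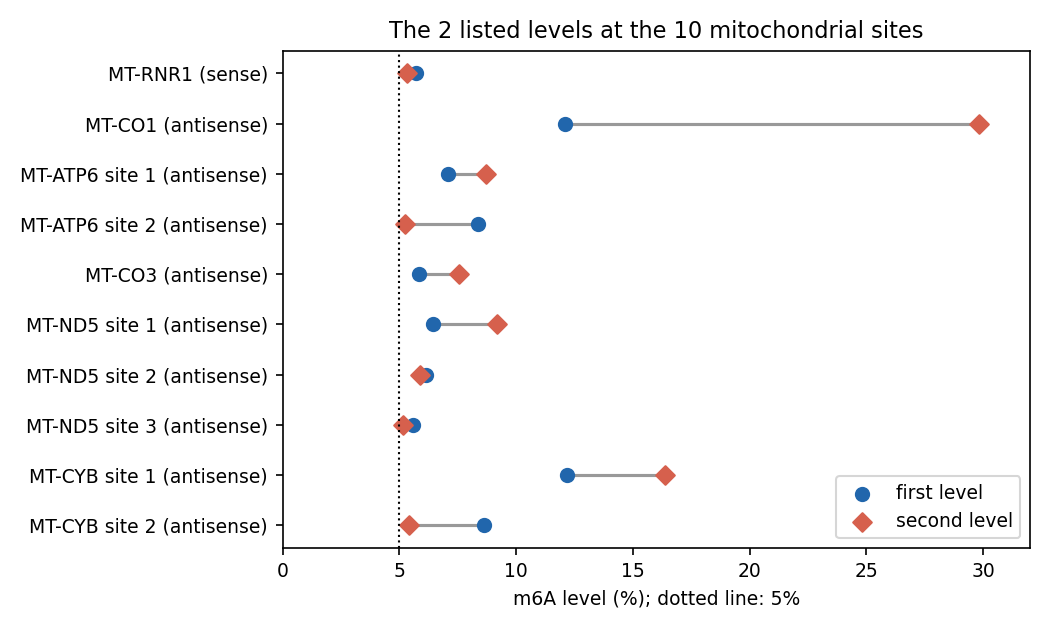
The first (blue circles) and second (red diamonds) m6A level in percent at each of the 10 mitochondrial sites, 1 value each from the deposited list, with a dotted line at 5%. MT-CO1 at 12.1% and 29.8% and MT-CYB site 1 at 12.2% and 16.4% stand to the right of the other 8 sites, whose levels all lie between 5.15% and 9.20%.

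In order of the second level, the MT-CO1 site at 29.8% was followed by MT-CYB site 1 at 16.4%, and the other 8 sites lay between 5.15% and 9.20%. The first level of these 8 lay between 5.57% and 8.65%. Because no level has a known spread, no order among the 8 can be claimed. Of the 20 levels at the mitochondrial sites, 8 were below 6% (40%), close to the lowest level that the list holds, compared with 52 of the 530 levels at nuclear sites (9.81%). Both levels were below 10% at 8 of the 10 mitochondrial and at 35 of the 265 nuclear sites. The authors' minimum for a call thus lay just under many of the mitochondrial levels, and sites below it are not listed.

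The second level exceeded the first at 5 of the 10 mitochondrial sites, where over all 275 listed sites it did so at 85.8%. It was at least 1.5 times the first at 1 mitochondrial site, in MT-CO1, and at 59.6% of all listed sites. In the other direction, the first level was at least 1.5 times the second at 2 mitochondrial sites, MT-ATP6 site 2 and MT-CYB site 2, and at 2.55% of all listed sites. The 5 sites with the higher second level were those of MT-CO1, MT-ATP6 site 1, MT-CO3, MT-ND5 site 1 and MT-CYB site 1. At the 5 with the lower second level, that level lay between 5.15% and 5.88%, next to the minimum. The median first level was 6.76% at mitochondrial and 11.3% at nuclear sites, the median second level 6.71% and 23.3%, and the median ratio 1.09 and 1.79. Without the MT-CO1 site, a subset chosen after seeing the data, the mitochondrial median ratio was 0.959, below 1. A low ratio was also found among nuclear RNAs. The 26 sites of MALAT1, a nuclear long non-coding RNA, had median levels of 9.07% and 9.87% and a median ratio of 1.09. Both levels were below 10% at 13 of them, and the second exceeded the first at 20 (76.9%). The authors' filters also required a minimum number of mutated reads, so a site with few reads could be listed only at a high level. How far the differences in level and ratio between mitochondrial, MALAT1 and other nuclear sites go with depth was not tested. These are descriptions of a list from 1 library per level and were not tested.

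**Figure D2:**
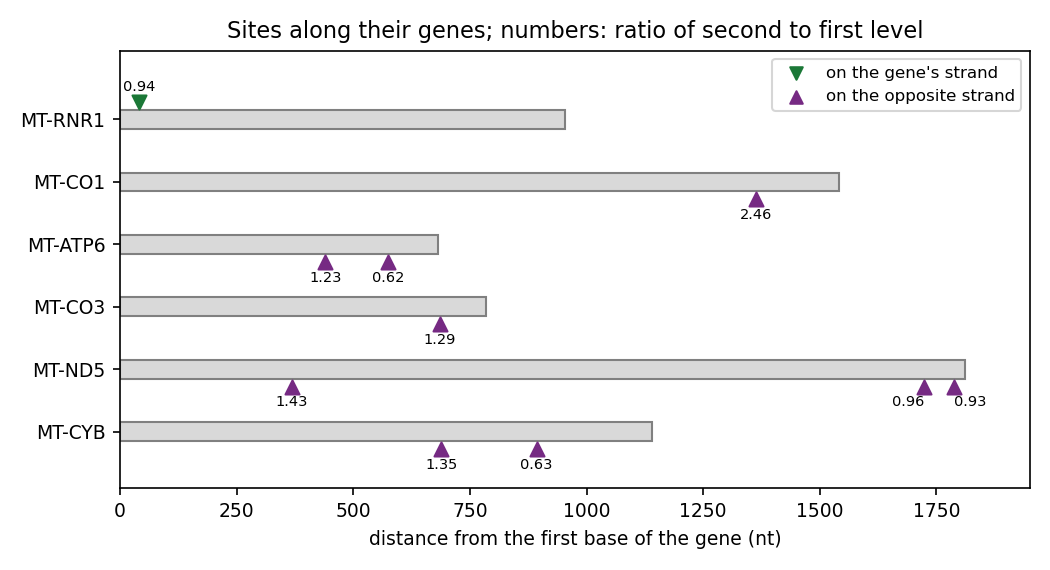
Position of each site along its gene, in nt from the first base of the gene, for the 6 mitochondrial genes that hold a site. Upward purple triangles are sites on the opposite strand, the downward green triangle is the site on the gene's own strand, and the number at each is the ratio of the second to the first level, from 0.62 to 2.46.

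Along their genes, 6 of the 9 antisense sites faced bases beyond 75% of the gene length, as the map of positions shows. Of the 112 minus-strand GAUG adenines opposite plus-strand protein-coding genes, 25.9% did so. The base opposite the site was the middle base of a codon at 7 of the 9 sites and the initial base at 2, and the codon was ATC at 6. Those 6 were the GAUG sites that faced a middle base, where the motif itself fixes the codon as ATC. The placement in codons was much like that of GAUG in general, since 89 of those 112 adenines (79.5%) also faced a middle base. Neither share was tested.

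The 2 strands of the mitochondrial genome offer GAUG unequally. GAUG occurred 141 times on the minus strand, at 3.44% of its 4094 adenines, and 22 times on the plus strand, at 0.429% of its 5124 adenines. The list held 8 of the 141 (5.67%) and 0 of the 22. On the minus strand it held 3 of 23 AGAUG (13%), 3 of 39 GGAUG (7.69%), 2 of 60 UGAUG (3.33%) and 0 of 19 CGAUG. The base after GAUG was A at 4 of the 8 listed sites, G at 3 and U at 1, and over all 141 it was A at 44, G at 45, U at 33 and C at 19. DRACH was present at 149 adenines of the minus and 443 of the plus strand, and the list held 0 of these 592. Most GAUG adenines of the mitochondrial genome were therefore not listed, and whether reads covered them is unknown.

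Gene by gene, the list held 2 of the 4 GAUG adenines opposite MT-ATP6, 3 of 22 opposite MT-ND5, 1 of 8 opposite MT-CO3, 1 of 16 opposite MT-CYB and 1 of 15 opposite MT-CO1. It held 0 of 15 opposite MT-ND2, 0 of 10 opposite MT-ND4, 0 of 9 opposite MT-CO2 and 0 of 8 opposite MT-ND1, which encode 3 further subunits of complex I and 1 of cytochrome c oxidase. MT-ND6 has 5 GAUG adenines on its own strand, none of which was listed. With 8 listed GAUG sites in all, the counts per gene are small and their differences were not tested.

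**Figure D3:**
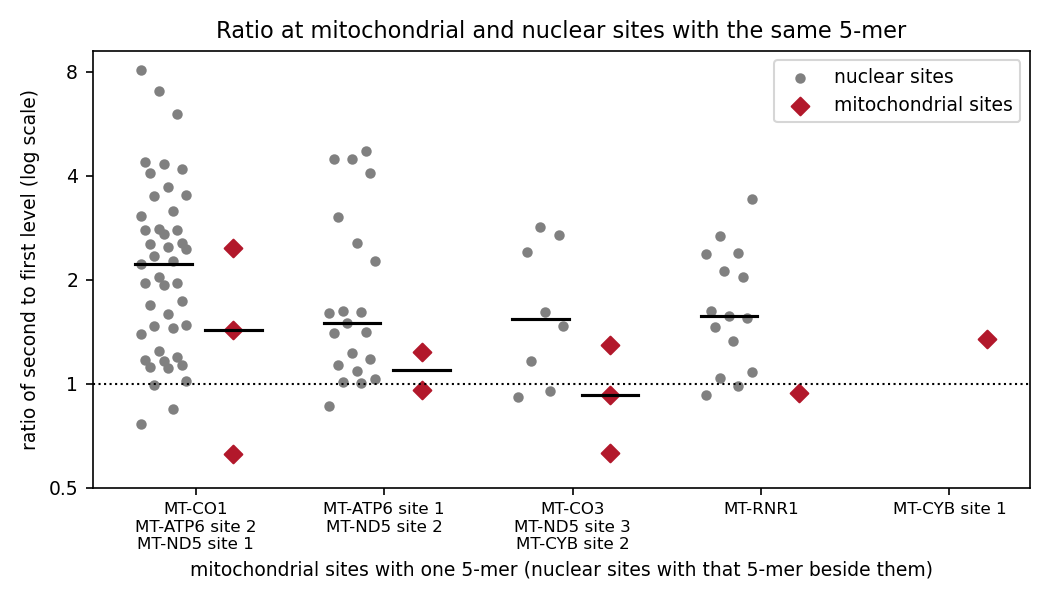
Ratio of the second to the first level (log scale) at mitochondrial sites (red diamonds) and at nuclear sites with the same 5-mer (grey circles), with black bars at the medians of groups of 2 or more and a dotted line at 1. In each of the 3 groups on the left, which share GAUG, the mitochondrial median (1.43, 1.09 and 0.926) lies below the nuclear one (2.21, 1.5 and 1.54).

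Because the motifs differed, mitochondrial sites were placed beside nuclear sites with the same 5-mer. At AGAUG, the 3 mitochondrial ratios of 0.625, 1.43 and 2.46 had a median of 1.43, and 45 nuclear sites had a median of 2.21 and a range of 0.763 to 8.10. The MT-ATP6 site 2 thus lay below every nuclear AGAUG site, and the MT-CO1 site lay above the nuclear median. At GGAUG, the 3 mitochondrial ratios ran from 0.628 to 1.29 and those of 8 nuclear sites from 0.912 to 2.84, with MT-CYB site 2 below all of them. At UGAUG, the mitochondrial ratios of 0.959 and 1.23 lay within the nuclear range of 0.860 to 4.72 over 21 sites. The AGAUU of MT-RNR1, at 0.937, also lay within the nuclear range of 0.926 to 3.43 over 15 sites, and CGAGG had no nuclear site. The second level exceeded the first at 69 of the 75 nuclear and at 4 of the 8 mitochondrial GAUG sites. The second levels of MT-ATP6 site 2 and MT-CYB site 2, 5.24% and 5.43%, lay next to the minimum, and no level has a known spread. Their place below the nuclear sites is therefore a description only. With 2 or 3 mitochondrial sites per 5-mer these values were not tested.

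RBFOX2 binds GCAUG and UGCAUG. The paper also reports AGAUG as the most frequent motif at RBFOX2-bound, methylated sites of caRNA, and stronger RBFOX2 binding to AGAUG oligos with m6A than without. Only GCAUG was searched here around the sites. On the mitochondrial genome GCAUG occurs 15 times on the minus and 4 times on the plus strand. The nearest GCAUG on the same strand lay 61 nt from MT-ATP6 site 2 and 70 nt from MT-ATP6 site 1, and over all 10 sites the distance ran from 61 to 1748 nt. Within 50 nt, GCAUG was found at 0 of the 9 minus-strand sites and at 8.40% of the minus-strand adenines. A match is a description of letters and says nothing of binding.

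Nuclear DNA holds old copies of mitochondrial sequence, and reads from them can be placed on the mitochondrial genome. The 31 nt around each site were therefore searched on both strands of the hg38 sequences other than the mitochondrial one, with up to 5 mismatches. An exact copy was found for 4 of the 10 sites (MT-RNR1, both MT-ATP6 sites and MT-ND5 site 3), and 37.6% of all 31-nt windows of the mitochondrial genome have one. Allowing at most 3 mismatches, 9 of the 10 sites had a copy. MT-CYB site 2 had none below 4 mismatches, and MT-CYB site 1 had a single copy, with 3. The share of all mitochondrial windows with a copy within 3 mismatches was not computed. The MT-RNR1 sequence alone had 32 of the 49 copies within 3 mismatches, and the MT-CO1 sequence had 5, none of them exact.

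**Figure D4:**
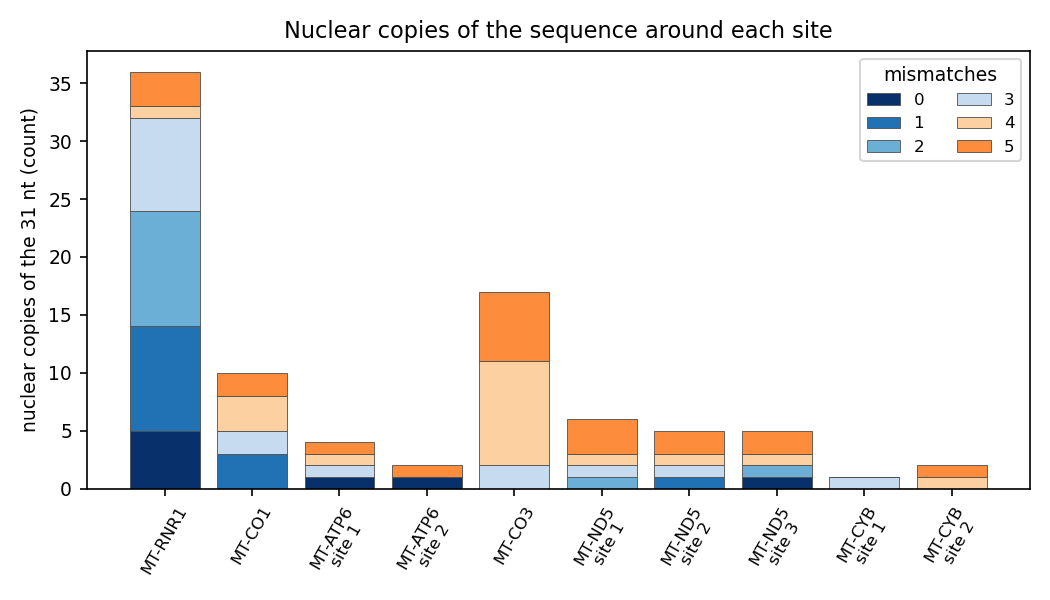
Number of nuclear copies of the 31 nt around each site, stacked by mismatches from 0 (dark blue) to 5 (orange). MT-RNR1 has 36 copies, MT-CYB site 1 has 1 and MT-CYB site 2 has 2, and exact copies exist for 4 sites.

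The base at the site itself was nearly always the same in the copies. Of the 49 copies within 3 mismatches, 48 had the A, and the exception was 1 of the 32 copies of the MT-RNR1 sequence, with a C. All 17 copies of the antisense sites had the A. Within 3 mismatches, no difference between the mitochondrial genome and a nuclear copy in hg38 fell on the listed base of an antisense site. Up to 5 mismatches, 1 of the 4 copies of MT-ATP6 site 1 had another base there. The mismatch limit lets only a few bases of a copy differ, and an exact copy cannot differ at all. Most copies would therefore keep the base at almost any position, and the counts do not single out the site. Whether other positions of the copies differed more often was not tested.

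The strand of the copies is of interest because an RNA antisense to a mitochondrial gene can also be the sense RNA of a nuclear gene. Of the 17 copies of antisense sites, 11 lay in an intron of a gene transcribed from the strand that reads like the site. These covered 7 of the 9 antisense sites, all but MT-CO3 and MT-CYB site 2. The same share for other mitochondrial windows was not computed. PCBD2 (ENSG00000132570.15, chromosome 5, 134905120 to 135007959, plus strand), which encodes a pterin dehydratase, held copies of the 3 MT-ND5 sites and of MT-CYB site 1 in that orientation, with 0 mismatches for MT-ND5 site 3, 1 for site 2, 2 for site 1 and 3 for MT-CYB site 1. ENSG00000230021.10 (chromosome 1, 586071 to 827796, minus strand), annotated as a transcribed processed pseudogene, held exact copies of both MT-ATP6 sites and a copy of the MT-CO1 site with 1 mismatch. KIAA0825 (ENSG00000185261.16, chromosome 5, 94150851 to 94618604, minus strand) held copies of the 3 MT-ND5 sites with 2 or 3 mismatches, and RABL3 (ENSG00000144840.10, chromosome 3, 120684938 to 120742993, minus strand), a small GTPase gene, held 1 of the MT-CO1 site with 3. The list holds 0 sites on the strand of any of these 4 genes, where 0.590% of all nuclear protein-coding genes hold one. Of its nuclear sites, 0 fall in a copy within 5 mismatches, and the copies are a very small part of the nuclear genome. These counts of 0 therefore say little about the copies or their genes. At the 4 sites with an exact copy, the 31 nt cannot tell the mitochondrial RNA from the nuclear one, and the part of nuclear RNA in the levels was not tested.

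At the 6 sites without an exact copy, all of them antisense, the second level exceeded the first at 4, and the levels included the highest of the 10, those of MT-CO1 and MT-CYB site 1. MT-CYB site 2, whose closest copy had 4 mismatches, had a ratio of 0.628.

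Nuclear genes, most of which serve the mitochondrion, were looked up in the same list. Of 113 oxidative phosphorylation genes, 78 mitochondrial ribosomal protein genes and 40 genes for mitochondrial transcription, RNA processing, RNA decay and RNA modification, among them POLRMT, LRPPRC, SUPV3L1 and PNPT1, 0 held a site on their own strand. Of all 20007 nuclear protein-coding genes, 118 (0.590%) held one, so a count of 0 in lists of this size says little about these genes.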

How the data were processed

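Chromatin-associated RNA of K562 cells was measured by m6A-SAC-seq in 4 libraries, 1 per condition. The authors clipped reads with Cutadapt 2.10, removed PCR duplicates by molecular identifiers, aligned the reads to hg38 with STAR 2.7.3a, called mutations with VarScan and filtered adenines by P value, coverage, mutated reads, frequency and difference from the untreated library. The authors' deposited list gives each site, as text, 2 levels in percent, and the deposited ratio of these levels (second over first), which was recomputed within rounding at all 275 sites. Columns of single samples numbered 0.

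All rows of the mitochondrial chromosome were used, and every gene holding one was named. The members, gene lists and comparisons were chosen with earlier results of these data known. Positions, strands and 5-mers were checked against hg38 (275 of 275 matched) and assigned with GENCODE release 44. Motifs were counted on both strands of the 16569-nt mitochondrial genome. Ungapped copies of 31 nt (main limit 3 mismatches) and 51 nt were searched in the 454 other reference sequences, alternate ones included; the search was tested on planted copies. Shares carry exact binomial intervals at 95% in the sensitivity comparison, for counting error only. No test across libraries or sites was made. Tools were Python 3.11.15, numpy 2.4.6, numba 0.67.0, scipy 1.17.1, pysam 0.24.0, samtools 1.23.1 and matplotlib 3.10.9.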

Additional observations from a re-analysis of the deposited data

How the results depend on the processing

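The levels have no replicate, so a median ratio counted as moved when its printed digits changed, and a share when it left the exact 95% interval of the reported one. The median ratio of 1.09 was 1.39 over the 4 sites with both levels at least 6%, 1.32 over the 6 sites without an exact nuclear copy and 1.23 over the 9 antisense sites. Without the MT-CO1 site it fell below 1, to 0.959. The last 2 subsets were chosen after seeing the data. The second level exceeded the first at 100% of those 4 sites, against 50% of all 10 (interval 18.7% to 81.3%). The interval treats sites as independent draws, although sites are not replicates. It served only as the limit for calling a share moved, not as a test. Those 4 leave out MT-CO3 and all 5 sites with the lower second level, each of which lies below 6%. The antisense share of 90.0% was 100% among the 6 sites without an exact copy, since MT-RNR1 has copies. The number of sites with a nuclear copy, 9 with at most 3 mismatches, was 6 with at most 1, 7 with at most 2, 10 with at most 4 or 5, and 8 with 51 nt and at most 5. Taking 1 site per 50 nt changed nothing because the nearest sites lie 63 nt from each other. No paired analysis was possible because each condition has 1 library and the list names no library for its levels.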
